A study of Mus musculus with 12 samples.

Results

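Amigo2, Uck1, Mtdh and Cuzd1 are 4 genes chosen by their low ratios of testis RNA in both comparisons that involve a modifier of the mouse Wobbler mutation, with the further condition that none is a classic spermatid gene. Each had 1 probe on a cDNA array of 20355 probes that carried 9930 named genes: probe 8324 for Amigo2, 17907 for Uck1, 12647 for Mtdh and 11871 for Cuzd1. All 4 probes had a value on all 12 arrays. Because the measured ratios of the modifier comparisons chose these genes, those ratios are given below as a description and without a test. The comparison of Wobbler with wildtype testis was not used in the choice, and there the genes were tested.

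The study set 3 kinds of male mice on a Castaneus background against each other. They were mice labelled Wobbler modifier (wr/mod in the series' notation, with the modifier not described further), Wobbler mice without it (wr/wr) and wildtype mice; no age was given. Wobbler is a recessive mutation in Vps54, whose product helps vesicles returning from endosomes dock at the Golgi, and homozygous males make misshapen sperm. By the channel labels every array was hybridised with 2 testis RNA pools of 3 males each, 1 in Cy5 and 1 in Cy3, although the protocol text speaks of a reference pool of control animals. The 3 pairs of genotypes had 4 arrays each, and in replicates 3 and 4 of each pair the dyes were exchanged. A pool averages over its animals, and nothing states whether the arrays of a pair came from separate pools, so the spread between arrays may be technical. Values are log2 ratios of the first-named over the second-named genotype. The deposited files do not state the direction of the ratio; that a negative value means less RNA in the first-named genotype is likely from the array titles and the usual order of the dyes, but not certain.

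The seminiferous epithelium of the testis turns spermatogonia into spermatocytes, round spermatids and finally elongated spermatids, in which transcription stops while stored messages are still translated. Many widely used genes have transcripts in haploid cells in addition to their transcripts in other tissues. Amigo2 encodes a membrane protein with leucine-rich repeats and an immunoglobulin domain that acts in cell adhesion and in the survival of neurons. Uck1 encodes uridine-cytidine kinase, which returns uridine and cytidine to the nucleotide pool by adding a phosphate. Mtdh encodes metadherin, also called AEG-1 or LYRIC, a membrane and nuclear protein known from tumours that binds the nuclease SND1 and acts with NF-kappaB. Cuzd1 encodes a protein with CUB and zona pellucida domains known from the zymogen granules of the pancreas and from the uterus.

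Promoter sequences of 3 of the 4 genes were found in a RefSeq table of the mouse genome build GRCm38.p6. The 150 bases before the transcription start are shown side by side. The genes were chosen for low ratios in the same comparisons, and shared regulation was not tested. The gene for Amigo2 lies on chromosome 15, that for Uck1 on chromosome 2 and that for Cuzd1 on chromosome 7, all on the minus strand; Mtdh lies on chromosome 15. The windows are chr15:97247288-97247437 for Amigo2, chr2:32260106-32260255 for Uck1 (the first of 2 starts in the table) and chr7:131322293-131322442 for Cuzd1. Capitals mark matches to CCAAT or GGGCGG on either strand.
Amigo2: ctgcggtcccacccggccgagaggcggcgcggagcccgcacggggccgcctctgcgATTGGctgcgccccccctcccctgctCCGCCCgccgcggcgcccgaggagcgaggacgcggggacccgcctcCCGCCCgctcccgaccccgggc
Uck1: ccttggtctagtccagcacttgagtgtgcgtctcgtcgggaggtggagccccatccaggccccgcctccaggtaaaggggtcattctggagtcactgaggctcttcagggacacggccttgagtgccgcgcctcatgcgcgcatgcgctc
Cuzd1: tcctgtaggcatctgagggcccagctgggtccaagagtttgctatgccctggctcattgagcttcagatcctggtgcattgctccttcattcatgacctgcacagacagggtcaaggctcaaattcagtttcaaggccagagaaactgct

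The 3 promoters differed in base composition. Over the 250 bases before the start, G and C made up 84.0% for Amigo2, 61.6% for Uck1 and 53.2% for Cuzd1, against a median of 52.4% over 32851 promoters of the table. The CpG dinucleotide occurred 38 times for Amigo2, 12 times for Uck1 and 0 times for Cuzd1, with a median of 6. Searching both strands of these 250 bases, Amigo2 had 1 match to the CCAAT box, starting 94 bases before the start, and 4 matches to the GC box GGGCGG; Uck1 and Cuzd1 had 0 of either. CCAAT occurred in 33.9% of all promoters and GGGCGG in 32.7%. The cAMP response element TGACGTCA, its core TGACG (which lies inside it) and TATAAA had 0 matches in all 3 genes, and occurred in 1.55%, 17.8% and 12.4% of promoters. None of the motifs searched was thus held by all 3 windows.

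In testis with the modifier the signal of each gene was between 0.411 and 0.438 times that of wildtype testis in the likely direction of the ratio, and would be 2.28 to 2.43 times as high with the ratio turned. Amigo2 had log2 ratios of -1.09, -0.97, -1.50 and -1.58 on the 4 arrays of modifier over wildtype, with a mean of -1.28 ± 0.30 (SD, n = 4). Uck1 had -1.09, -0.98, -1.69 and -1.26, with a mean of -1.26 ± 0.31 (SD, n = 4). Mtdh had -1.23, -1.01, -1.48 and -1.30, with a mean of -1.25 ± 0.19 (SD, n = 4). All 3 were lowest on the dye-exchanged arrays, replicates 3 and 4. Cuzd1 went the other way, with -1.48 and -1.34 on the first pair of arrays and -1.06 and -0.89 on the dye-exchanged pair. Its mean was -1.19 ± 0.27 (SD, n = 4). On every array each of the 4 genes lay below zero, and between 1.59% and 5.21% of all usable spots of the same array lay lower.

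Against Wobbler testis without the modifier, the signal was between 0.391 and 0.517 times as high, or 1.94 to 2.56 times with the ratio turned. Here Cuzd1 was the lowest of the 4, with log2 ratios of -1.79, -1.19, -1.23 and -1.22 on the arrays of modifier over Wobbler and a mean of -1.36 ± 0.29 (SD, n = 4). Replicate 1 stood apart from the other arrays, and without it the mean of Cuzd1 was -1.21. Amigo2 had -0.88, -0.76, -1.16 and -1.25, a mean of -1.01 ± 0.23 (SD, n = 4). Mtdh had -0.86, -0.78, -1.25 and -1.13, a mean of -1.0 ± 0.22 (SD, n = 4). Both were again lower on the dye-exchanged arrays, without overlap between the dye orientations. Uck1 had -0.98, -0.79, -1.08 and -0.96, a mean of -0.95 ± 0.12 (SD, n = 4), and its orientations overlapped. The spread of Uck1 was small in this comparison only: 3.56% of all features had a smaller SD, where the median SD was 0.40. In modifier over wildtype 54.0% of features had a smaller SD than Uck1, and in Wobbler over wildtype 49.4%.

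**Figure D1:**
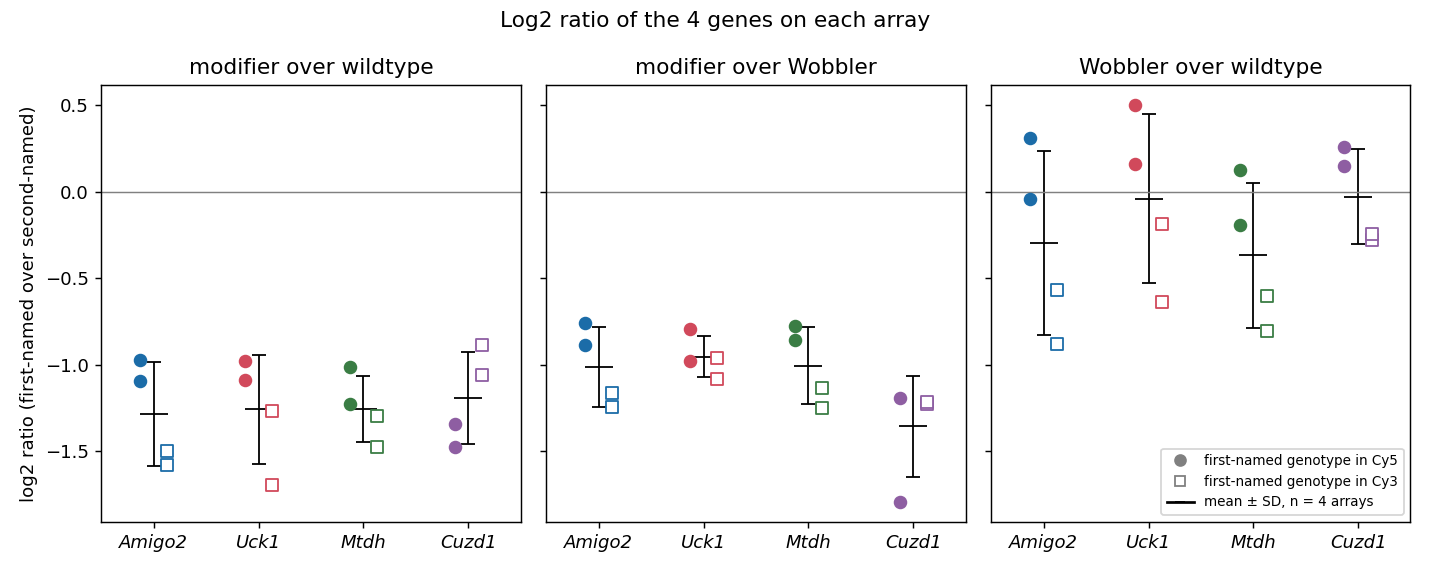
Log2 ratios of the 4 genes on every array (y axis), 1 panel per comparison; filled circles are arrays with the first-named genotype in Cy5, open squares those with it in Cy3, and bars are mean ± SD over 4 arrays. All points of the modifier comparisons lie below zero, whereas in Wobbler over wildtype the circles lie above the squares for each gene.

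Among all features the genes lay in the lower tail of both modifier comparisons, as their choice required. A feature is a named gene, its probes averaged, or a probe without a single gene name; 14729 features were measured on at least 3 of 4 arrays of each comparison. In modifier over wildtype 56 features had lower ratios than Amigo2, 62 lower than Uck1, 63 lower than Mtdh and 77 lower than Cuzd1. In modifier over Wobbler the numbers were 257 for Amigo2, 300 for Uck1, 266 for Mtdh and 112 for Cuzd1. With the ratios turned these would be the numbers of features higher than each gene. The mean of Cuzd1 was thus the highest of the 4 against wildtype and the lowest of the 4 against Wobbler. No test is given for the 4 genes here. As background, in a limma fit over all 12 arrays at a Benjamini-Hochberg adjusted p under 0.05, 0.699% of features passed as lower, 0.0339% as higher and 0.733% in either direction in modifier over wildtype, and 0.299%, 0.115% and 0.414% in modifier over Wobbler. At an unadjusted p under 0.05 lay 7.33% of features in modifier over wildtype, 11.5% in modifier over Wobbler and 15.7% in Wobbler over wildtype, the shares against which the unadjusted counts of gene lists below stand.

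**Figure D2:**
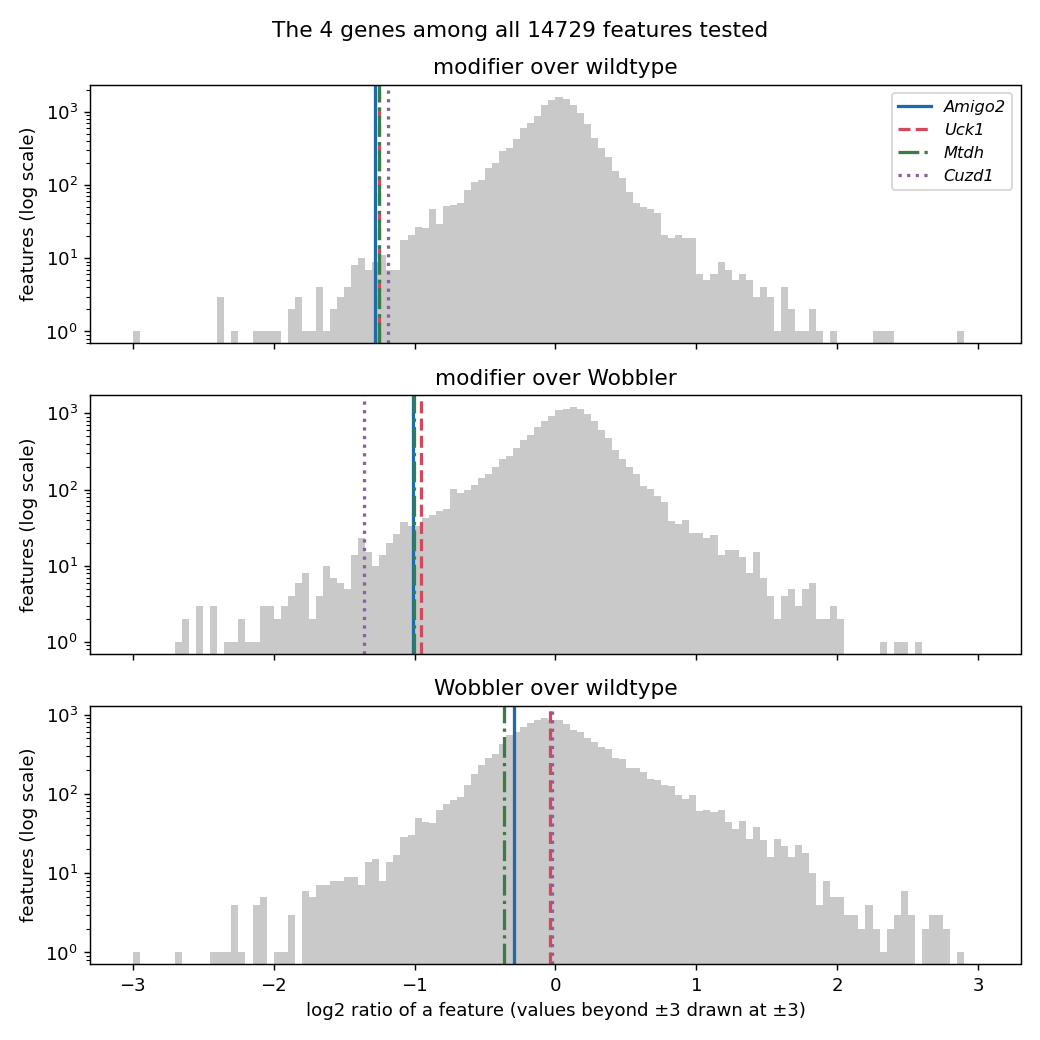
Number of features (y axis, log scale) by their log2 ratio (x axis) in each comparison, with a vertical line at the ratio of each of the 4 genes. The lines lie in the left tail in both modifier comparisons and farther to the right in Wobbler over wildtype, where 14.1% to 47.6% of features are lower.

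Wobbler testis without the modifier was next set against wildtype testis, which asks whether the mutation alone came with a difference in these genes. None of the 4 genes passed. With limma 0 of 4 had an adjusted p under 0.05, where 0.306% of features passed in either direction. At an unadjusted p under 0.05 there were 2 of 4, Mtdh and Amigo2, where 15.7% of features lay under that level.

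Mtdh had log2 ratios of 0.13, -0.19, -0.80 and -0.60 in Wobbler over wildtype. Its fitted ratio was -0.37 ± 0.11 (SE of the fit over all 12 arrays), with a 95% interval of -0.62 to -0.12, an unadjusted p of 0.00786 and a limma adjusted p of 0.188. That interval stands for a signal between 0.653 and 0.920 times that of wildtype testis. Amigo2 had 0.31, -0.04, -0.88 and -0.57. Its fitted ratio was -0.29 ± 0.12 (SE) with an interval of -0.55 to -0.04 and a limma adjusted p of 0.275. For both genes the replicates spread from above to below zero, and the SD over the 4 arrays was larger than the mean (0.42 for Mtdh, 0.53 for Amigo2). The SE is shared over all 12 arrays: with this comparison fitted alone in limma it was 0.22 for Mtdh and 0.26 for Amigo2, with unadjusted p of 0.160 and 0.302, and without the dye term the unadjusted p was 0.0463 and 0.157.

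Uck1 had 0.50, 0.16, -0.63 and -0.18 in Wobbler over wildtype, so that its fitted ratio of -0.04 ± 0.14 (SE) was near zero with an interval of -0.34 to 0.27 (limma adjusted p 0.908). Cuzd1 had 0.26, 0.15, -0.28 and -0.24. Its fitted ratio was -0.03 ± 0.15 (SE) with an interval of -0.37 to 0.32 (limma adjusted p 0.942). The interval of Uck1 stands for a signal between 0.788 and 1.20 times that of wildtype testis. That of Cuzd1 stands for one between 0.773 and 1.25 times. Both intervals rest on the SE shared over the arrays of all comparisons. With this comparison fitted alone in limma the SE was larger, 0.24 for Uck1 and 0.19 for Cuzd1. Intervals from that fit would be wider, so the bounds given here are not firm limits on a difference.

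Dye orientation moved with the values of Wobbler over wildtype. With Wobbler RNA in Cy5 the means were 0.13 for Amigo2, 0.33 for Uck1, -0.03 for Mtdh and 0.21 for Cuzd1. With Wobbler RNA in Cy3 they were -0.72, -0.41, -0.70 and -0.26 for the same genes. No gene had overlapping values between the orientations in this comparison. The dye coefficient of the fit, which is added when the first-named genotype is in Cy5 and subtracted when it is in Cy3, was 0.29 ± 0.07 (SE) for Amigo2, 0.22 ± 0.08 (SE) for Uck1, 0.22 ± 0.06 (SE) for Mtdh and -0.04 ± 0.09 (SE) for Cuzd1. Over all features its median was 0.15, with a 10th percentile of -0.10 and a 90th of 0.40, and all 4 values lie between these percentiles. The coefficient is 1 value for all comparisons. Computed within each, the dye effect of Cuzd1 was 0.23 in Wobbler over wildtype but -0.22 and -0.13 in modifier over wildtype and over Wobbler. That of Amigo2 ran from 0.19 to 0.43, of Uck1 from 0.067 to 0.37 and of Mtdh from 0.13 to 0.34. A shared coefficient thus leaves part of it in the residuals. In the modifier comparisons each orientation on its own gave a negative mean for each gene, from -0.82 for Mtdh and Amigo2 with Cy5 against Wobbler to -1.54 for Amigo2 with Cy3 against wildtype.

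The 3 pairs form a closed loop, so each ratio can also be reached by way of the third genotype. Amigo2 closed it most nearly: the indirect ratio of modifier over Wobbler was -0.99 and the direct one -1.01. For Mtdh they were -0.89 indirect and -1.0 direct, for Cuzd1 -1.16 and -1.36, and for Uck1 -1.22 and -0.95. The indirect Wobbler over wildtype ratio was -0.27 for Amigo2, -0.30 for Uck1, -0.25 for Mtdh and 0.16 for Cuzd1. Indirect minus direct, the gap was 0.02 for Amigo2, -0.26 for Uck1, 0.12 for Mtdh and 0.19 for Cuzd1, while the median absolute gap over all features was 0.33. By the indirect route all 4 genes were negative in both modifier comparisons too. These routes reuse the arrays that chose the genes and are given as values only.

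**Figure D3:**
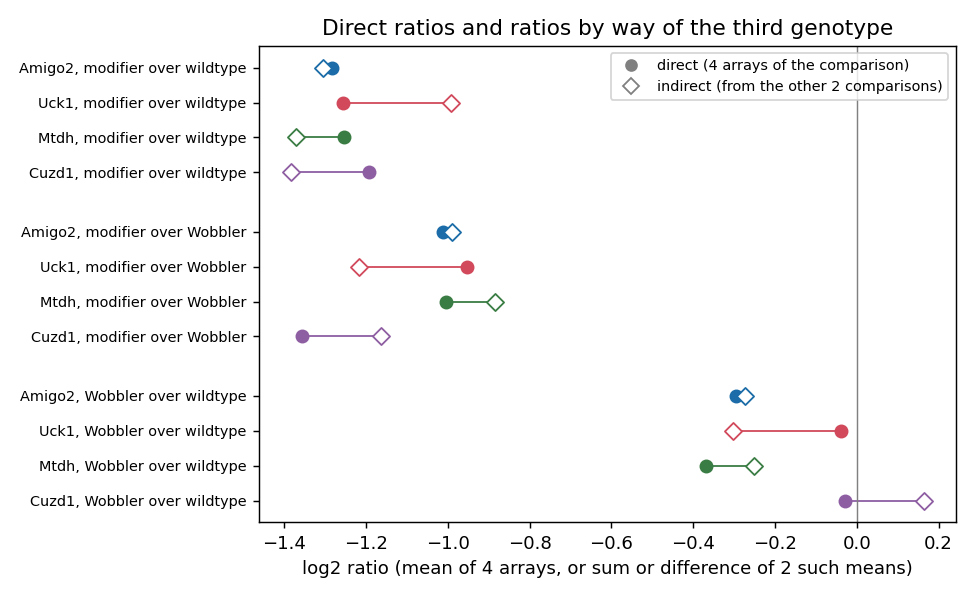
Direct log2 ratios (filled circles, mean of 4 arrays) and indirect ones (open diamonds, from the other 2 comparisons) of each gene, 1 row per gene and comparison. The pairs of symbols lie close together for Amigo2, with a gap of 0.02, and farthest apart for Uck1, with a gap of -0.26.

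Amigo2, Uck1 and Mtdh were more alike over the arrays than Cuzd1 was to them, a contrast that narrowed once the dye coefficient was removed. Over the 12 arrays Pearson's r was 0.98 between Amigo2 and Mtdh (Spearman's rho 0.97), 0.97 between Uck1 and Mtdh (rho 0.96) and 0.96 between Amigo2 and Uck1 (rho 0.90). Cuzd1 correlated at 0.71 with Amigo2 (rho 0.50), 0.76 with Mtdh (rho 0.54) and 0.81 with Uck1 (rho 0.63). The values of Amigo2 and Mtdh differed by 0.10 on average per array and by at most 0.28, those of Amigo2 and Cuzd1 by 0.37 and at most 0.91. These correlations contain the difference between comparisons that chose the genes. After subtracting each comparison's mean, r was 0.95, 0.92 and 0.90 among the first 3 genes and 0.15 to 0.28 between them and Cuzd1. Arrays of a comparison differ in dye orientation, and on the same deviations the median feature had an r of 0.39 to 0.40 with Amigo2, Uck1 and Mtdh and of 0.0087 with Cuzd1. With the dye coefficient removed as well, r was 0.79 to 0.81 among the 3 and 0.62 to 0.74 with Cuzd1, against medians of 0.06 to 0.13 over all features.

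The named genes with the most similar profiles were sought among 8044 others measured on all 12 arrays. Neither the difference between comparisons nor the dye effect was removed, so both enter each r. For Mtdh they were Smcp, of the capsule of sperm mitochondria (r = 0.99), Stard6, a lipid transfer protein of the StAR family (r = 0.98), Amigo2 (r = 0.98) and Uck1 (r = 0.97). For Amigo2 they were Mtdh, Stard6 (r = 0.97), Rpl39l, a ribosomal protein paralog of male germ cells (r = 0.97), and Psma6, a subunit of the proteasome (r = 0.96). For Uck1 they were Ccdc91 (r = 0.98), Mtdh, Stard6 (r = 0.97) and Btk, a kinase of B cells (r = 0.97). Cuzd1 had looser matches: Spz1, a transcription factor of the testis (r = 0.90), Frat2 (r = 0.90), Plaat5, a phospholipid acyltransferase (r = 0.90), and Ppp3r2, the testis form of the calcineurin regulatory subunit (r = 0.88). Smcp and Spz1 are also in the spermatid list described next. A correlation does not compare levels: Btk was at -0.25 and 0.14 in modifier over wildtype and over Wobbler, and Frat2 at -0.0018 and -0.056.

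Some late spermatid markers were also lower. Of 40 measured late spermatid markers, 15 passed as lower, 0 as higher and 25 did not pass in modifier over wildtype, where 0.699% of all features were lower; the list's median was -0.75 and that of all features 0.01. In modifier over Wobbler 8 passed as lower, 0 as higher and 32 did not pass, where 0.299% of all features were lower. The list's median there was -0.55 against 0.08 for all features. The 5 with the smallest p were lower in both: Tnp1, a transition protein of spermatid chromatin, was at -1.10 and -1.13, Oaz3, an antizyme of spermatids, at -1.28 and -0.90, and Tex36 at -1.03 and -0.70. Spz1 was at -1.33 and -1.30 and Smcp at -1.12 and -0.86 (limma adjusted p of the 5 between 0.000995 and 0.0190). In Wobbler over wildtype 0 of 40 passed with limma, 6 at an unadjusted p under 0.05. Leaving out replicate 1, 2 or 3 of modifier over wildtype gave 4, 5 and 4 in place of 15. In modifier over Wobbler the 8 became 1, 0, 4 and 5 when its own replicates 1 to 4 were left out in turn, and 4 or 5 without any 1 array of modifier over wildtype or without replicate 4 of Wobbler over wildtype. With each comparison fitted alone the 15 and 8 became 1 and 0, without a dye term 10 and 1, and with the replicate block 12 and 3. They became 24 and 11 with array weights and 16 and 14 in a model with 2 genotype coefficients. Read as channel 1 over channel 2, with the dye-exchanged arrays not turned, they became 0 and 0. In that reading a difference between genotypes cancels between the dye orientations, so it measures dye and not genotype. These alternative counts were added after seeing the data. The list was drawn up with results of these arrays known and is not independent evidence of its direction.

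The ratios of the 4 genes lay below the list's medians in both modifier comparisons, which their choice as low genes favours. Of the markers themselves, 3 of 40 were lower than all 4 genes in modifier over wildtype and 1 against Wobbler. On single arrays the list's median ran from -0.82 to -0.53 in modifier over wildtype, from -0.66 to -0.46 in modifier over Wobbler and from -0.34 to 0.26 in Wobbler over wildtype. Over the 12 arrays the list's median had an r of 0.98 with Mtdh and with Amigo2, 0.97 with Uck1 and 0.79 with Cuzd1. These r contain the dye effect and the difference between comparisons that chose the genes, and no value without them is given. Single markers had a median r of 0.75 to 0.79 with the first 3 genes and 0.56 with Cuzd1. Over all features the medians were 0.12 to 0.18 and -0.07. In whole testis, fewer cells of a type and less RNA per cell cannot be told apart, and the part of the spermatid markers in the ratios of the 4 genes was not tested.

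Some Leydig cell markers moved too. Of 14, 2 passed as lower in modifier over wildtype, where 0.699% of all features were lower. They were Cyp17a1, an enzyme of androgen synthesis (-2.03), and Ephx1, an epoxide hydrolase (-0.77), with 0 higher and a median of -0.54. In modifier over Wobbler 1 passed, Cyp17a1 (-1.39), with a median of -0.40, where 0.299% of all features were lower. Leaving out any 1 array of modifier over wildtype reduced the 2 to 1. Leaving out replicate 1 or 2 of modifier over Wobbler reduced the 1 to 0. Without replicate 2 of Wobbler over wildtype the count there was 2. In Wobbler over wildtype 0 of the 14 passed, with a median of 0.03. At an unadjusted p under 0.05 lay 5 in modifier over wildtype, 5 in modifier over Wobbler and 3 in Wobbler over wildtype. The shares of all features were 7.33%, 11.5% and 15.7%. Across the 12 arrays this list's median had an r of 0.56 with Cuzd1 to 0.87 with Mtdh. These again contain the difference between comparisons and the dye effect. Among 12 meiotic spermatocyte markers 1 was lower in modifier over wildtype, Syce2, of the synaptonemal complex (-0.94). Among 12 macrophage markers it was 1, Tyrobp, an adaptor of myeloid cells (-0.68), both beside the 0.699% of all features. The spermatogonia (11), Sertoli (16), peritubular and vessel (16), epididymis (6) and blood (6) markers had 0 passing in each comparison with limma. Of the Sertoli list 4, 3 and 2 genes lay at an unadjusted p under 0.05 in modifier over wildtype, modifier over Wobbler and Wobbler over wildtype, and each of the other 4 lists had 0 to 2. The Sertoli list had medians of -0.04, 0.02 and 0.01.

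Of 14 measured markers of the pancreatic acinus, a tissue in which Cuzd1 is known, 0 passed in any of the comparisons with limma. Of all features, 0.306% to 0.733% passed. At an unadjusted p under 0.05 lay 0, 0 and 3 markers in modifier over wildtype, modifier over Wobbler and Wobbler over wildtype. Their medians were 0.05, 0.03 and 0.17.

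None of the tested relatives and partners of the 4 genes passed in any comparison with limma, where 0.306% to 0.733% of all features did. Uck2, the second uridine-cytidine kinase, was at -0.20 ± 0.13 (SE) in modifier over wildtype, 0.01 ± 0.13 (SE) in modifier over Wobbler and 0.07 ± 0.13 (SE) in Wobbler over wildtype (limma adjusted p from 0.812 to 1.0). It had 5 probes, which disagreed. Probe 7998 had -0.88 in modifier over wildtype, -0.63 in modifier over Wobbler and 0.61 in Wobbler over wildtype, while probe 13127 had -0.28, -0.15 and 0.08, and probes 9984 and 18421 had 0.14 and 0.05 against wildtype. Probe 14987 had -0.03 and 0.52 in the modifier comparisons and -0.84 in Wobbler over wildtype, there from 2 arrays. Fitted probe by probe, the low value of probe 7998 did not pass (limma adjusted p 0.328). Uckl1, a kinase-like relative, was at -0.04 ± 0.49 (SE), 0.15 ± 0.49 (SE) and 0.85 ± 0.49 (SE) in the same order. Its last value rested on replicate 2, which read 3.63 while the other arrays lay between -0.35 and 0.27.

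Snd1, the binding partner of metadherin, was at -0.12 ± 0.18 (SE) in modifier over wildtype and 0.19 ± 0.18 (SE) against Wobbler, and neither passed (limma adjusted p 1.0 and 0.765). Dmbt1, which like Cuzd1 holds CUB and zona pellucida domains and is the second nearest measured gene on 1 side of it, was at -0.31 ± 0.13 (SE) and -0.25 ± 0.13 (SE) without passing (limma adjusted p 0.577 and 0.476). Its 8 values in these comparisons were all negative, from -0.61 to -0.09. Amigo1 had 0 probes under that name on the array. Amigo3 was on the array but had too few values in Wobbler over wildtype to be tested. Its means were 0.31 (n = 4) in modifier over wildtype and -0.45 (n = 3) in modifier over Wobbler.

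Wider lists around each gene had 0 passing with the modifier. Of 32 other genes of pyrimidine nucleotide metabolism, 0 passed in either modifier comparison with limma, 3 and 6 at an unadjusted p under 0.05, with medians of -0.05 and 0.09. In Wobbler over wildtype, where 0.183% of all features were lower, 1 of the 32 was: Upb1, which breaks down uracil to beta-alanine. It had -0.81, -1.05, -0.90 and -0.41 on the arrays and a limma adjusted p of 0.0457. That call held in only 1 of 12 fits that left out 1 array, without replicate 4 of Wobbler over wildtype. The limma adjusted p ran from 0.0247 to 0.175 over these fits and from 0.0339 to 0.830 over 14 other alternatives. The 0.830 came from the reading of channel 1 over channel 2, in which genotype differences cancel. Of 19 partners of metadherin and genes of the NF-kappaB pathway, 0 passed in any comparison with limma, with 0, 1 and 1 at an unadjusted p under 0.05 in modifier over wildtype, modifier over Wobbler and Wobbler over wildtype. The 15 genes of microRNA silencing (1, 3 and 2 unadjusted), the 22 with CUB or zona pellucida domains (1, 3 and 1) and the 9 adhesion proteins related to AMIGO (1, 2 and 2) had 0 passing as well. Their medians in modifier over wildtype lay between -0.0025 and 0.072.

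**Figure D4:**
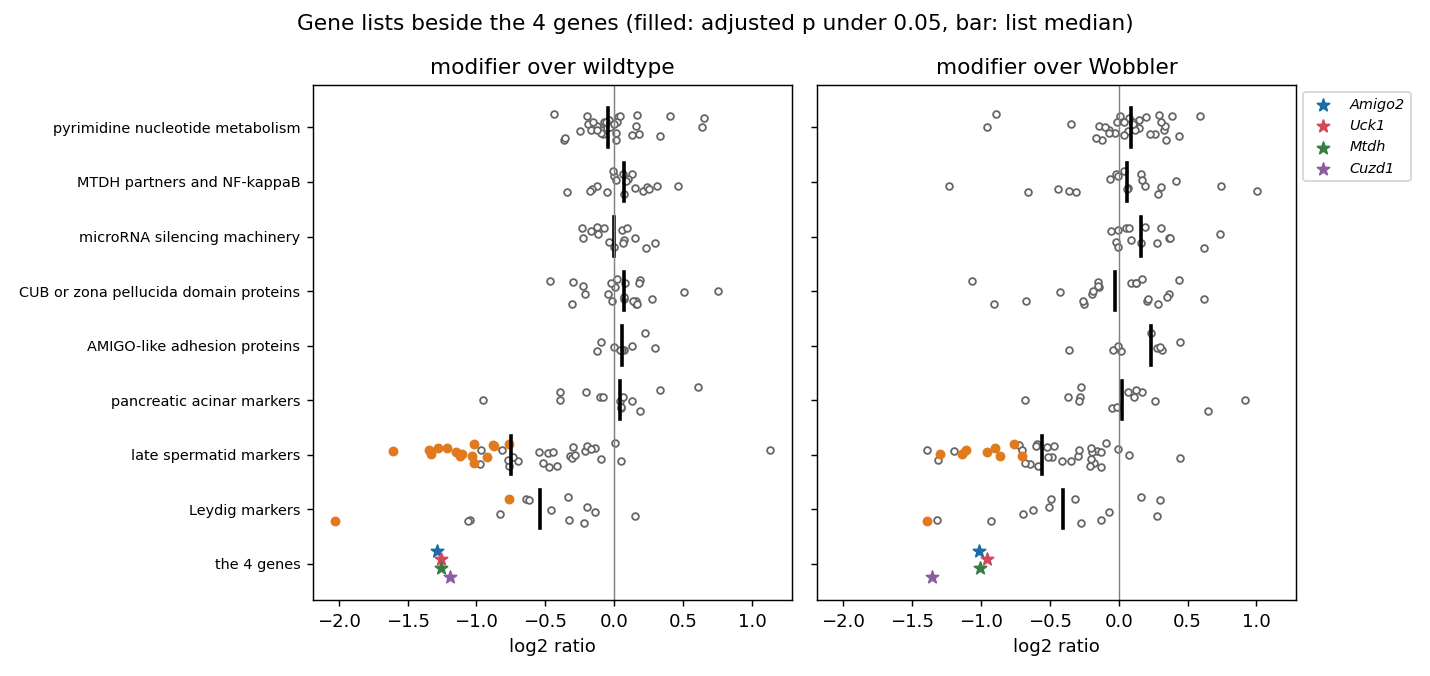
Log2 ratios (x axis) of the genes of 8 lists and of the 4 genes (stars, colours as in the legend) in both modifier comparisons; filled points passed at an adjusted p under 0.05 and black bars are list medians. The stars lie among the lower late spermatid markers, whose medians are -0.75 and -0.55, and left of the medians of all the lists shown.

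Of the 10 nearest measured genes around each locus, 5 on each side, 0 passed around Amigo2, Uck1 and Mtdh in all 3 comparisons with limma. Of all features, 0.306% to 0.733% passed. Among the 10 neighbours of each gene, 0 to 2 had an unadjusted p under 0.05. Their medians in modifier over wildtype were 0.07 around Amigo2, 0.0046 around Uck1 and 0.07 around Mtdh. Slc38a4 and Rpap3 flank Amigo2, with -0.04 and 0.02 in modifier over wildtype. Prrc2b and Swi5 flank Uck1, with -0.17 and -0.38, and Tspyl5 and Rpl30 flank Mtdh, with 0.10 and -0.17.

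Around Cuzd1 1 of 10 passed, its nearest measured neighbour Fam24a. Fam24a had log2 ratios of -0.54, -0.42, -1.28 and -0.97 in modifier over wildtype (fitted -0.80, limma adjusted p 0.0143) and of -0.37, 0.02, -1.25 and -1.26 in modifier over Wobbler (fitted -0.72, limma adjusted p 0.0361). In Wobbler over wildtype it had 0.46, 0.55, -0.12 and -0.04 and did not pass (0.21, limma adjusted p 0.408). The dye-exchanged arrays gave the low values in each comparison, which was not so for Cuzd1 in the modifier comparisons. Without the dye term Fam24a did not pass against wildtype (adjusted p 0.371) or against Wobbler (0.374). It was also lost against wildtype without replicates 1, 2 or 3 of that comparison (adjusted p 0.147, 0.126 and 0.124), and against Wobbler in 10 of 12 fits without 1 array, all but those without replicates 1 or 2 of Wobbler over wildtype. The gene on the other side of Cuzd1, 4933402N03Rik, was at -1.25 in modifier over wildtype with a limma adjusted p of 0.982.

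Each array had 18325 to 19584 usable spots. As deposited, before the dye-exchanged arrays were turned, array medians ran from 0.03 to 0.22; SDs ran from 0.62 to 1.61, the last on replicate 2 of Wobbler over wildtype. With each array's shift removed, 2 of 48 values of the 4 genes fell on log2 ratios of small whole numbers, where dim spots collect. They were Uck1 on replicate 3 of modifier over wildtype and Cuzd1 on replicate 4 of modifier over Wobbler. On these arrays 5.31% and 7.73% of usable spots did so. Without such spots Uck1 was at -1.17 in modifier over wildtype and Cuzd1 at -1.39 in modifier over Wobbler.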

How the data were processed

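The authors deposited 1 log2 ratio of the 2 channels per spot for 12 two-colour arrays, with scanner and normalization not given in the sources used here. Base 2 follows from the values, where dim spots fall on log2 ratios of small whole numbers once a constant shift per array is subtracted. The number of arrays limits the precision. On each array 1 repeated value between 15.5 and 16.5 (22 to 165 spots) was read as a code for a missing denominator and treated as missing. The shift of an array was taken as that value minus the log2 of 100000. Arrays with the first-named genotype in Cy3 were multiplied by -1. The platform annotation gave 1 gene symbol for 14030 of 20355 probes, several for 5 and none for 6320; 13994 matched a RefSeq gene table of GRCm38.p6, which changed 0 symbols. Probes of 1 gene were averaged.

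A linear model was fitted over all 12 arrays (limma 3.58.1, lmFit and eBayes; R 4.3.3), with a coefficient for each comparison and a dye term, on the 14729 features with values on at least 3 of 4 arrays of each comparison. Adjusted p-values are Benjamini-Hochberg over all of these. Tested on simulated data with the arrays' unequal spreads, the fit recovered planted ratios, but in Wobbler over wildtype more of the passing features were unchanged ones than the threshold allows. Named genes were the 4 genes, the 4 most similar named profiles of each, passing list members (up to 5 per list), 6 fixed relatives and the nearest measured genes on each side. The 4 genes and all lists were chosen with earlier results of these data known. Lists are described by counts and medians. Alternatives changed centring, scaling, dye term, filter, model, weights, coded and dim spots, probes and the set of arrays.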

Additional observations from a re-analysis of the deposited data

Results flagged for a closer look

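Replicate 1 of modifier over Wobbler read -1.79 for Cuzd1, far from the other arrays, which lay between -1.23 and -1.19. It was the only array that stood apart in this way among 12 groups of 4 arrays (4 genes in 3 comparisons), where chance flags about 1 in 20 groups. Without that array the mean of Cuzd1 in this comparison was -1.21.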

How the results depend on the processing

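Leaving aside the reading of channel 1 over channel 2, the 4 genes stayed negative in both modifier comparisons under all 25 other alternatives. Their choice as low genes favours this, and many alternatives leave the mean of a comparison unchanged, so it is no test. Against wildtype and Wobbler, Amigo2 lay between -1.64 and -1.25 and between -1.06 and -0.95. Cuzd1 lay between -1.54 and -1.10 and between -1.43 and -1.21. None of the 4 passed in Wobbler over wildtype under any of the 26 alternatives. With 1 array left out, Amigo2 lay there between -0.41 and -0.18, Mtdh between -0.47 and -0.29, Uck1 between -0.16 and 0.10 and Cuzd1 between -0.15 and 0.081. With arrays centred on their medians Uck1 was at 0.0018 and Cuzd1 at 0.012, and in a loop model with 2 genotype coefficients Cuzd1 was at 0.036. Read as channel 1 over channel 2, Amigo2, Uck1, Mtdh and Cuzd1 were at 0.43, 0.37, 0.34 and 0.23 in Wobbler over wildtype; Amigo2, Uck1 and Mtdh at 0.25, 0.22 and 0.13 in modifier over wildtype and at 0.19, 0.067 and 0.19 in modifier over Wobbler, where Cuzd1 stayed negative (-0.22 and -0.13); Fam24a at 0.32 and 0.54; and 0 features passed in any comparison.

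The number of features passing (108 and 61 in modifier over wildtype and over Wobbler, and 45 in Wobbler over wildtype) depended on the fit; the cause was not tested. In this order it was 46, 7 and 24 without a dye term, 4, 0 and 0 with each comparison fitted alone, 224, 207 and 0 in the loop model, and 165, 110 and 87 with each probe on its own. With array weights it was 752 and 21 and with equal array spread 439 (69 higher, 370 lower; 5 and 103 before) and 24 (6 higher, 18 lower; 18 and 27 before) in modifier over wildtype and Wobbler over wildtype. With 1 array left out it ran from 20 to 153, 0 to 128 and 18 to 54. Residuals of same-numbered arrays of different comparisons correlated at -0.34 to 0.09 (median -0.12). Those of other arrays with the same dye orientation correlated at -0.30 to 0.13 (median -0.15). These values cannot decide whether same-numbered arrays were paired, because a shared pool could be first-named on 1 array and second-named on the other. With the replicate block in place of the dye term the counts were 58, 24 and 22, and none of the 4 genes passed in Wobbler over wildtype.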
